A study of Mus musculus with 16 samples.

Results

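The peaks described here are merged peaks that the authors called from m6A antibody capture of RNA from peritoneal macrophages (PMs). The measure is how far capture in unstimulated PMs exceeded or fell short of the transcript's own abundance. A peak was not required to show capture in unstimulated PMs. Peaks were chosen by their input levels alone: a peak was a member when its mean input level over the 4 LPS libraries, in CPM (counts scaled to the library's total on peaks), was at most 2 times that over the 4 mock libraries. This kept 6238 of the 7069 distinct peaks, on 4564 genes, and left out 831 peaks above the limit. The median LPS-to-mock input ratio of the members was 0.426, so a ratio below 1 was usual among them. Members near the limit thus still include transcripts that rose after LPS relative to the typical member. Of the members, 5412 lay on 1 annotated gene and 826 on several. The peaks nearest the limit lay on *Ext1* and *Rel* inside it, at 1.99 times in both cases, and on *Cd14* and *Ifi204* outside it, at 2.003 and 2.01 times.

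N6-methyladenosine, m6A, is the methylation of adenosine inside messenger RNA. It is written in the nucleus by a complex around the enzyme METTL3, with METTL14, WTAP, ZC3H13 and RBM15 proteins as partners, and it is read by YTH-domain proteins that affect the splicing, translation and decay of the marked transcript. In mammalian mRNA the mark is known to gather around the stop codon and in long internal exons. In m6A-methylated RNA immunoprecipitation sequencing (MeRIP-seq), RNA is cut into short fragments, an aliquot is kept as input, and the rest is pulled down with an anti-m6A antibody (IP), so that dividing IP by input sets capture apart from transcript level.

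The PMs came from WT and Adap-/- mice on a C57BL/6 background, sex-matched littermates of 6 to 8 weeks, and were washed from the peritoneum 3 days after an injection of 3% thioglycolate, which recruits macrophages to the cavity. Adap-/- mice lack ADAP, an adaptor protein of immune cells encoded by *Fyb1*. Cells of each genotype were left unstimulated (mock) or given LPS, bacterial lipopolysaccharide, at 1 ug/ml for 6 h, and each of the 4 groups had 2 replicates with an IP and an input library each. The sources used here do not say whether replicates came from separate mice, so the p-values measure the spread between these libraries, which may be technical.

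The mock IP libraries held between 5728590 and 12784362 reads on peaks and the mock input libraries fewer, between 2121313 and 2333347. A pair of mock IP libraries stood apart from their labels. On 258 peaks whose input level after LPS was over 8 times the mock level and over 50 CPM, the median level in Adap-/- mock IP replicate 2 and WT mock IP replicate 1 was 94.0% and 110% of the mean in the LPS IP libraries, against 14.5% in Adap-/- mock IP replicate 1 and 9.28% in WT mock IP replicate 2. All 4 mock input libraries lay between 3.02% and 4.44% of the LPS input level on the same peaks. On 54 peaks that LPS lowered to under 0.0625 of the mock input level, the same pair of libraries held 36.4% and 45.1% of the mock input level, beside 50.2% and 61.4% in the other two mock IP libraries and 2.55% to 11.7% in the LPS IP libraries. The source of the LPS transcripts in this pair was not tested. The limit above removes the peaks that LPS raised most, and the counts of calls in all, by region and by gene list are given with all 8 mock libraries and also without this pair.

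The cells carried the markers of their label. Of 7 macrophage markers, *Adgre1*, *Cd68*, *Csf1r*, *Lyz2*, *Mertk* and *Spi1* had a peak, with a summed mock input level of 17040 to 20733 CPM after TMM normalisation (normalised CPM), and *Itgam* had none. None of 6 B cell, 6 T cell, 6 eosinophil and mast cell, or 6 fibroblast and mesothelial markers had a peak. Only reads on peaks were counted, so a gene without a peak was not measured, and its absence here does not show that it was not expressed. Of 6 neutrophil markers *Csf3r*, the G-CSF receptor, had one, at 234 to 303 normalised CPM in mock input. In *Fyb1*, the deleted gene, a peak in the coding sequence (chr15:6609828-6610128, GRCm39, as the table gives it) held 259 and 260.5 normalised CPM in WT mock input and 0.488 and 0 in Adap-/- mock input, as the labels require. A further coding-sequence peak held 123 and 141 in WT and 0.488 and 2.24 in Adap-/-. The other *Fyb1* peaks did not separate the genotypes. A faint start codon peak held 0.972 and 1.04 in WT and 2.44 and 1.34 in Adap-/-. A peak shared with another gene held 79.7 and 91.8 in WT and 83.5 and 64.5 in Adap-/-.

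Mock IP and mock input differed at a sizeable minority of the peaks. Of 6216 members with enough reads to be tested (22 were not), 633 were higher in IP and 410 lower, at an adjusted p under 0.05 and a log2 ratio beyond 1 (edgeR quasi-likelihood test, Benjamini-Hochberg over all 6988 peaks tested). Over all peaks tested the shares called were 11.1% higher and 5.87% lower, so the members' 10.2% and 6.60% are close to the background. All 4 IP libraries lay above all 4 input libraries at 1015 members and below them at 1199, beside 16.2% and 17.2% of all peaks tested. The peaks were called by the authors from IP against input in these libraries, so a ratio above 1 is no finding in itself. The log2 ratios are relative to the average peak, since TMM centres them: the median member lay at 0.01, and the 5th and 95th percentiles were −1.15 and 1.52. With library totals in place of TMM the median member lay at 0.24, with 952 called higher and 243 lower, so a direction near 0 depends on this centring.

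Without the pair of libraries that hold LPS transcripts, 996 of the 6203 members tested were higher and 635 lower. Later counts without the pair are to be read beside these, not beside the shares with all libraries. Of the 633 members called higher with all libraries, 611 were called again and 631 kept their direction, and of the 410 called lower, 383 were called again and 410 kept their direction.

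The ratio fell as the transcript's own level rose. Members with a mock input level of at most 10 normalised CPM had a median log2 ratio of 1.07, and 289 of 795 were called higher and 0 lower. Members above 1000 normalised CPM had a median of −0.61, and 4 of 123 were called higher and 41 lower. Across the 6216 members the log2 ratio and the log2 input level had a Pearson r of −0.572, a description in which both measures share the input libraries. Of the members called higher, 235 of 633 had fewer than 10 reads in at least 1 mock input library, against 0 of the 410 called lower. A peak with few input reads could be in the table and be tested through its IP reads alone. The high median and the lack of lower calls at low input are thus partly fixed by how peaks were called and filtered. Peak length went with the ratio more weakly, with a Spearman rho of 0.19.

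**Figure D1:**
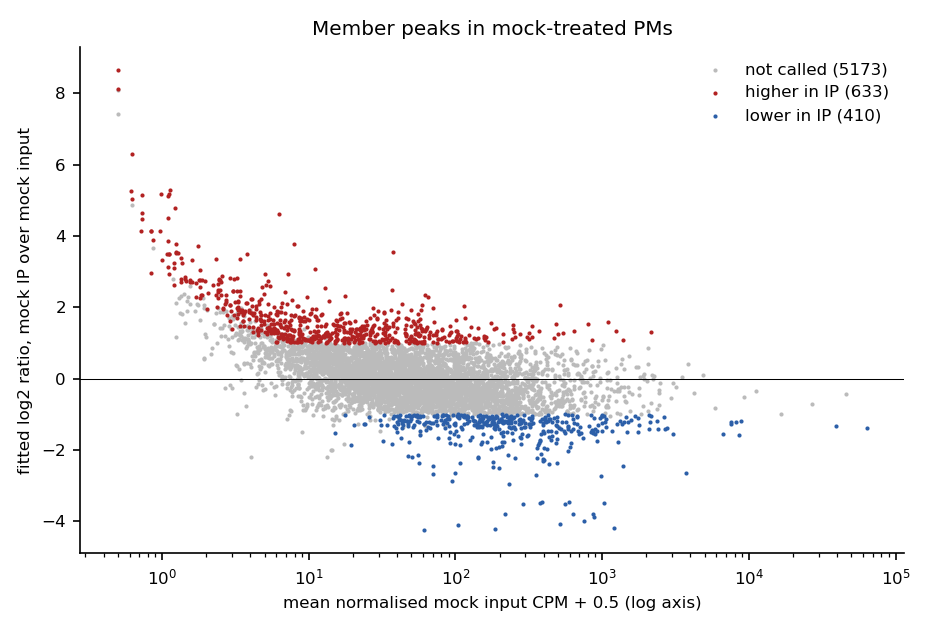
Fitted log2 ratio of mock IP over mock input (vertical axis) against the mean normalised mock input level plus 0.5 CPM (horizontal axis, log scale) for the 6216 members tested, with red points for the 633 called higher, blue points for the 410 called lower and grey points for the rest. Higher calls crowd at low input levels, where the median log2 ratio was 1.07 at up to 10 CPM, and lower calls at high input levels. Peaks at low input could be tested through their IP reads alone.

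Higher calls were named from peaks with at least 10 reads in every mock input library and no overlap between IP and input. The first of them lay on *Saa3*, an acute-phase serum amyloid gene of macrophages (chr7:46364351-46365118, GRCm39). Its IP level was 649 and 438 normalised CPM in Adap-/- replicates 1 and 2 and 267 and 342 in WT replicates 1 and 2, and its input level was 28.3 and 69.9 in Adap-/- and 30.6 and 18.2 in WT. Every IP library lay above every input library, with a log2 ratio of 3.55 ± 0.32 (SE, n = 4 IP and 4 input libraries; edgeR, adjusted p = 0.000385).

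The stop codon peak of *Hexim1*, which encodes an inhibitor of the elongation kinase P-TEFb, had a small spread between libraries (chr11:103008706-103008981). IP libraries held 371 and 273 normalised CPM in Adap-/- and 298 and 316 in WT, and input libraries 68.8, 71.6, 58.3 and 57.6. The log2 ratio was 2.30 ± 0.14 (SE; edgeR, adjusted p = 0.000269), and 2.42 without the doubtful pair, whose libraries were the lowest of the 4 in IP. The stop codon peak of *Cln8*, an endoplasmic reticulum protein involved in lysosomal enzyme traffic, was the most abundant of the set (chr8:14946714-14947039). Its IP level was 2432 and 1414 normalised CPM in Adap-/- and 1738 and 3014 in WT, and its input level 464, 455, 534 and 613, a log2 ratio of 2.06 ± 0.23 (SE). The IP level was lower in the pair of libraries that hold LPS transcripts. That it lay above every input library was required of a named peak.

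The stop codon peak of *Ppard*, a nuclear receptor for fatty acids, lay at chr17:28518797-28519072. It held 220.4, 191, 113 and 206 normalised CPM in the IP libraries, in the same order, and 50.3, 33.6, 40.8 and 46.2 in the input libraries. The log2 ratio was 2.09 ± 0.23 (SE; edgeR, adjusted p = 0.000664), and the lowest IP library was WT replicate 1. The start codon peak of *Arhgap25*, a Rac GTPase-activating protein of phagocytes, held 57.3, 46.2, 83.3 and 105 normalised CPM in IP and 9.27, 8.96, 15.1 and 16.1 in input, a log2 ratio of 2.55 ± 0.16 (SE). Here both IP and input were higher in WT.

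The other seven named higher peaks ranged in log2 ratio from 2.04 for *Sbf2*, which encodes a myotubularin-related protein, to 3.06 for *Atp5mc3*, a subunit of mitochondrial ATP synthase. Between them lay *Mocs3* at 2.48, which acts in molybdenum cofactor synthesis, *Chd2* at 2.31, a chromatin remodeller, *Eps8l1* at 2.29, an actin regulator, *Trim29* at 2.19, a ubiquitin ligase, and *Thap7* at 2.07, a zinc-finger transcriptional repressor. Of the 12 named higher peaks, those of *Mocs3*, *Hexim1*, *Eps8l1*, *Ppard*, *Thap7* and *Cln8* covered a stop codon, those of *Chd2* and *Sbf2* lay in the 3'UTR, and those of *Atp5mc3*, *Arhgap25* and *Trim29* covered a start codon. All 12 were called again without the doubtful pair of libraries, in a refit of the remaining libraries, which had also served to choose them. The largest fitted ratios belonged to peaks with few or no input reads, such as those on *BPTF* and *Dynlt3*, where all 4 mock input libraries were at 0, and no fold is given for them.

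The lower calls named next were chosen by the same rule of input reads and no overlap, and lay on transcripts whose input fell after LPS. The coding-sequence peak of *Idh1*, the cytosolic isocitrate dehydrogenase (chr1:65201080-65205419), held 1106 and 1032 normalised CPM in Adap-/- input and 1158 and 1523 in WT input, but 33.0 and 25.7 in Adap-/- IP and 226 and 71.2 in WT IP. All 4 IP libraries lay far below all 4 input libraries and WT IP replicate 1 was the highest of them, with a log2 ratio of −4.17 ± 0.54 (SE; edgeR, adjusted p = 0.00120). The start codon peak of *Rnf128*, a transmembrane ubiquitin ligase (chrX:138511650-138511975), held 864, 833, 806 and 963 normalised CPM in input and 27.5, 43.7, 148 and 68.1 in IP, a log2 ratio of −3.80 ± 0.41 (SE).

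The remaining named lower peaks lay on *Pdxk* (pyridoxal kinase, −4.25), *Pnpla7* (a lysophospholipase, −4.21), *Arrb1* (beta-arrestin, −4.09), *Klc4* (a kinesin light chain, −3.79), and the myeloid immune receptors *Cd300a* (−3.50) and *Cd300lb* (−3.44). All 8 were called again without the doubtful pair, although WT mock IP replicate 1, of that pair, was the highest IP library in all 8. The remaining libraries had also served to choose these peaks. Their LPS-to-mock input ratio lay between 0.0161 for *Cd300lb* and 0.0720 for *Rnf128*. Of the 16 members lower by more than 3 on the log2 scale, 14 had a LPS-to-mock input ratio of at most 0.125, against 39 of the other 394 lower calls and 344 of all 6216 members tested. This count is a description only: the input ratio is what chose the members, and mock input is the denominator of both that ratio and the IP-to-input ratio. Its part in the lower calls was not tested. At *Pnpla7*, *Idh1*, *Arrb1*, *Rnf128* and *Cd300a* the genotypes differed at an unadjusted p between 0.0102 and 0.0474 (edgeR) with the higher ratio in WT, and no adjusted p passed.

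**Figure D2:**
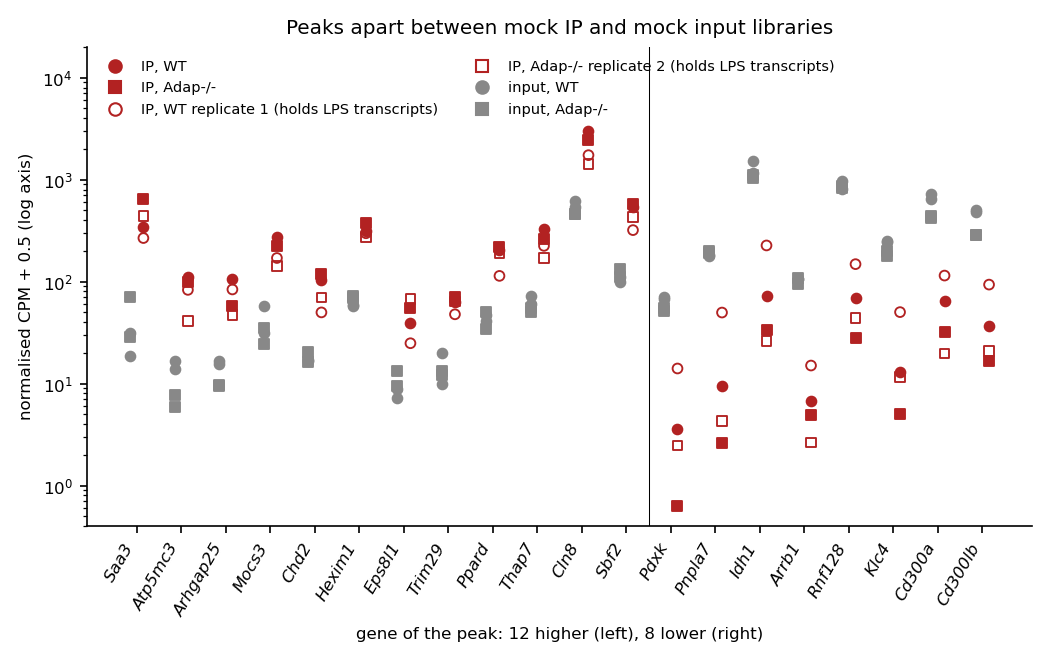
Normalised CPM plus 0.5 (vertical axis, log scale) of the 12 named higher peaks (left) and the 8 named lower peaks (right), with red symbols for mock IP and grey for mock input libraries, circles for WT and squares for Adap-/-, and open symbols for the pair of IP libraries that hold LPS transcripts. In every peak the 4 IP libraries lie apart from the 4 input libraries, as the choice of named peaks required.

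Peaks of a single transcript could lie at quite different ratios. *Cd300lb*, an activating receptor of myeloid cells that the study names, had 4 members along its 3' end, all on a transcript whose input fell after LPS. The longest, across the stop codon (chr11:114814556-114815781), held 1373 and 962 normalised CPM in Adap-/- IP and 1464 and 2147 in WT IP, beside 1445, 1347, 2098 and 2214 in input. Its log2 ratio of −0.26 ± 0.16 did not pass (edgeR, adjusted p = 0.239), and the libraries overlapped. The neighbouring short 3'UTR peak (chr11:114814406-114814531) held 15.97, 20.4, 93.0 and 36.2 normalised CPM in IP and 283, 287, 479 and 499.7 in input, a log2 ratio of −3.44 ± 0.35 (SE; edgeR, adjusted p = 0.000508). A further peak of 50 bases at the stop codon lay at −2.14 ± 0.21 and the more distal 3'UTR peak at −0.71 ± 0.14.

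Over the 1156 genes with several tested members of their own, the log2 ratio varied within genes with an SD of 0.73, beside an SD of 0.64 between gene means. A member was called higher in 225 of these genes and lower in 152. In 19 of the 1156 genes 1 member was called higher and another lower, and 18 of the 19 kept both calls without the doubtful pair of libraries. Whether 19 departs from what these counts alone would give was not tested. The genes given next were chosen after their values were seen. *Jun*, an immediate-early subunit of AP-1, was higher at its stop codon (chr4:94938020-94938595), with 1527, 927, 1260.1 and 1881 normalised CPM in IP and 399, 387, 610.3 and 548 in input, a log2 ratio of 1.54 ± 0.20. At its start codon (chr4:94939420-94939695) it held 155, 140.3, 212 and 234 in IP and 345, 364, 498 and 431 in input, a log2 ratio of −1.16 ± 0.12. IP and input did not overlap at either peak, and the input levels of both peaks were of similar size.

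*Ptafr*, the receptor for platelet-activating factor, had the same arrangement with little spread in input. Its stop codon peak (chr4:132307532-132308082) held 2069.8, 1457, 1639 and 2096 normalised CPM in IP and 841, 853, 858 and 861 in input, a log2 ratio of 1.09 ± 0.14. Its coding-sequence peak (chr4:132307007-132307107) held 175, 266, 320.3 and 173 in IP and 481, 465, 533 and 497 in input, a log2 ratio of −1.08 ± 0.21. Within the 3'UTR of *Pip5k1c*, a lipid kinase that makes PIP2, a peak of 300 bases (chr10:81154613-81154913) lay at 1.25 ± 0.18 and a peak of 100 bases (chr10:81153988-81154088) at −1.09 ± 0.11. *Mgat1*, a Golgi enzyme of N-glycan synthesis, was higher in the 5'UTR at 1.92 ± 0.23 and lower in the coding sequence at −1.18 ± 0.11. A stop codon peak was also the higher one in *Fem1c*, *Kdm2a* and *Tshz1*. It was the lower one in *Abhd12* (−1.46 ± 0.11), *Grb2* (−1.03 ± 0.12) and *SRSF5* (−1.07 ± 0.22). Their higher peaks, at the start codon or in the 5'UTR, had 2, 0 and 1 reads in the lowest mock input library.

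By position, members covering a stop codon were the most frequent, 2086 of 6238 (33.4%), followed by 1974 in the coding sequence only (CDS), 1004 in the 3'UTR only, 827 covering a start codon and 132 in the 5'UTR only. The median log2 ratio, taken in each IP library and averaged over the 4 libraries, was 0.05 ± 0.11 (SD, n = 4) for stop codon members, −0.09 ± 0.08 for CDS, −0.02 ± 0.10 for 3'UTR, −0.05 ± 0.08 for start codon and 0.55 ± 0.10 for 5'UTR members. The libraries moved together: stop codon members exceeded CDS members in 4 of 4 libraries, by 0.14 ± 0.03 (SD), and 3'UTR members in 4 of 4, by 0.07 ± 0.03. The design fixed no test for these medians, and sign changes over 4 libraries could not pass 0.05. The 5'UTR value rested on faint peaks, with a median input of 7.14 normalised CPM, and it was −0.05 ± 0.15 over members with at least 10 reads in every mock input library, where start codon members lay at −0.24 ± 0.10.

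Comparing peaks of a gene removes the transcript's level. The comparison took 426 genes, or sets of genes that share their peaks, with members of both kinds. The mean of the stop codon members exceeded that of the CDS members by a median of 0.33 and 0.28 in Adap-/- and 0.24 and 0.33 in WT mock IP replicates 1 and 2, a mean of 0.30 ± 0.04 (SD, n = 4). Over members with 1 annotated gene only it was 0.28 ± 0.05. The difference was above 0 in 257 to 281 of the 426 genes or gene sets, depending on the library. At matched input the order was the same: between 30 and 100 normalised CPM the median fitted log2 ratio was −0.00 for 772 stop codon members and −0.26 for 759 CDS members, and between 100 and 300 it was −0.23 for 506 and −0.44 for 284. In the LPS IP libraries, added after seeing the data, the within-gene difference over the same members was 0.15 ± 0.03, while over all members the stop codon median lay below the CDS median, by −0.08 ± 0.02. The order of these classes over all peaks differed between the mock and LPS libraries, and the within-gene order did not.

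**Figure D3:**
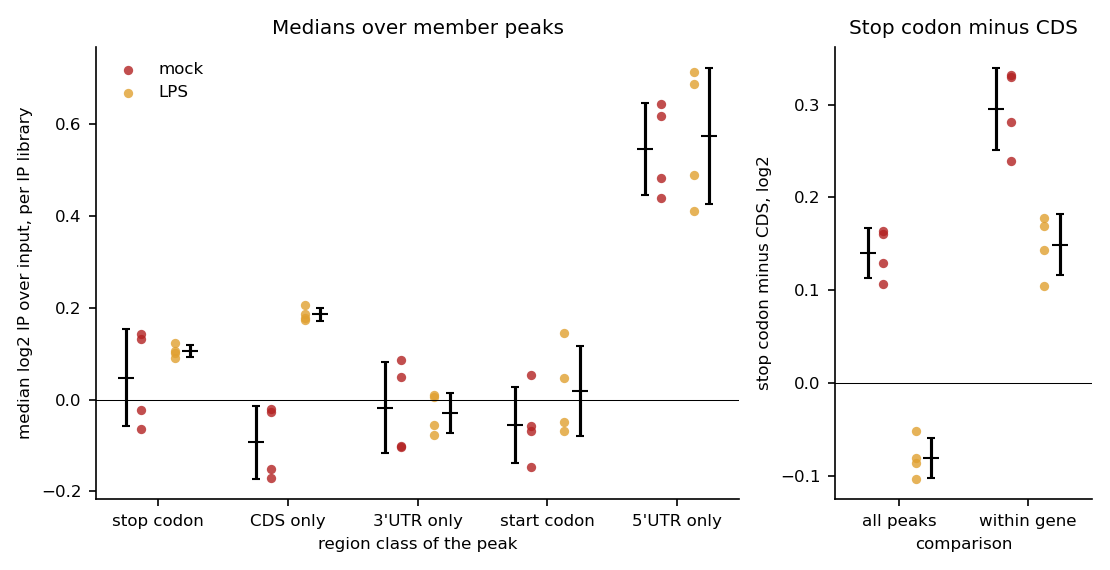
Left, median log2 ratio of IP over input in each IP library (points) by region class, for mock (red) and LPS (orange) libraries over the same members, with the mean and SD of 4 libraries in black. Right, the stop codon minus CDS difference in log2 ratio over all members and within 426 genes or sets of genes that share peaks. The mock points are all above 0, from 0.11 to 0.16 over all members and 0.24 to 0.33 within genes. The LPS points lie below 0 over all members and above 0 within genes.

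The shares called by region class stand beside 11.1% higher and 5.87% lower over all peaks, and their differences were not tested. Of the stop codon members tested, 11.7% were higher and 5.28% lower, close to that background. Of CDS members 6.65% were higher and 6.45% lower, of 3'UTR members 8.37% and 6.78%, of start codon members 13.6% and 10.4%, and of the faint 5'UTR members 25.4% and 5.38%. Without the doubtful pair the shares were 18.0% and 7.35% at stop codons, 10.9% and 10.7% in CDS, 13.8% and 9.67% in the 3'UTR, 19.1% and 17.7% at start codons, and 41.4% and 9.38% in the 5'UTR. That fit called 996 higher and 635 lower of all 6203 members tested, so its shares do not stand beside 11.1% and 5.87%.

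The genes of the m6A machinery carried peaks themselves, in 14 of 24 listed genes. Of their 36 tested members, 3 were higher and 1 lower (8.33% and 2.78%, beside 11.1% and 5.87% of all peaks). Neither share exceeded that of all peaks. Their median log2 ratio was −0.17, beside 0.01 over all members. Without the doubtful pair, 5 were higher and 3 lower. The higher ones included a CDS peak of the writer component *Zc3h13*, with 155, 94.6, 78.6 and 141 normalised CPM in IP and 43.9, 48.4, 43.7 and 42.0 in input (log2 ratio 1.40 ± 0.23), and a peak that *Rbm15b*, another writer component, shares with *Manf*, at 1.84 ± 0.17. The third lay at the start codon of *Wtap* at 1.32 ± 0.44, where the input level was 5.39 normalised CPM, and without the doubtful pair this call was lost at 0.80 (edgeR, adjusted p = 0.0647). The lower one lay in the reader *Prrc2a* at −1.15 ± 0.36. The reader *Hnrnpa2b1* at its stop codon fell by 1.00 on the log2 scale (SE 0.14; edgeR, adjusted p = 0.00150), just short of the fold threshold. *Mettl3* and *Igf2bp2* had no peak in the table.

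Macrophage receptors and identity genes lay low. Of 42 tested members on 23 genes, 2 were higher and 13 lower (4.76% and 31.0%, beside 11.1% and 5.87% of all peaks), with a median of −0.60. Without the doubtful pair, 1 was higher and 15 lower. Their median input was 428 normalised CPM, and the 404 members of any gene between 300 and 1000 normalised CPM also had a median of −0.60, with 27.0% lower. *Lyz2*, lysozyme, at its start codon held 7588, 7766, 8386 and 10292 normalised CPM in input and 2000.4, 2411, 4525 and 2681 in IP, a log2 ratio of −1.59 ± 0.19. *Cd68*, a lysosomal glycoprotein, lay at −1.26 ± 0.18. In both, WT IP replicate 1 was the highest IP library.

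*C1qa*, *C1qc*, *Clec7a*, *Fcgr3*, *Trem2*, *Cebpa* and *Sirpa* also had lower members. *Sirpa*, an inhibitory receptor that binds CD47, had 3 of them, and its most abundant peak, in the 3'UTR, lay at 0.05 ± 0.09. The 2 higher members were stop codon peaks, of *Tlr4*, the LPS receptor, and *Cebpb*, a transcription factor of inflammatory genes. *Tlr4* held 256, 192, 193 and 286 normalised CPM in IP and 108, 97.6, 101 and 99.6 in input, a log2 ratio of 1.19 ± 0.16. *Cebpb* lay at 1.08 ± 0.12, and at 0.95 without the doubtful pair, short of the fold threshold. Of the lower 3'UTR peaks of *Fcgr3*, one fell short likewise at −0.92 and the other stayed called at −1.16.

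Lysosome and phagosome genes had 2 higher and 7 lower of 23 tested members (8.70% and 30.4%, beside the same background), with a median of −0.79, and 2 and 9 without the doubtful pair. Their median input was 230 normalised CPM. The 1160 members of any gene between 100 and 300 normalised CPM had a median of −0.37, with 13.4% lower. The cathepsins *Ctsa*, *Ctsd* and *Ctss*, with *Gusb*, *Lgmn* and *Psap*, were lower, among them *Ctss* at −1.39 ± 0.21 and the glycosidase *Gusb* at −1.46 ± 0.12. *Ctsb*, the most abundant peak named here at 45818 ± 4775 normalised CPM in input (SD, n = 4), fell by 0.44 on the log2 scale (SE 0.10; edgeR, adjusted p = 0.0107), within the fold threshold. *Cd63*, a tetraspanin of late endosomes, was higher at its start codon at 4.60 ± 0.38, with 107, 51.8, 146 and 290.3 normalised CPM in IP and 4.39, 4.03, 5.83 and 8.82 in input. *Tfeb*, the transcription factor of lysosomal genes, was the other higher one. Of 18 lipid-handling members, 2 were higher and 5 lower (11.1% and 27.8%), with a median of −0.40, and 2 and 4 without the pair. Their median input, 139 normalised CPM, lay in the same range. *Apoe* appears on both sides, at −1.04 ± 0.14 across its start codon and at 1.86 ± 0.47 in a faint 5'UTR peak. *Fabp5*, a fatty-acid binding protein, lay at −1.42 ± 0.17.

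Ribosomal protein genes had few peaks and low ratios. Of 80 ribosomal protein and elongation factor genes, 17 had a peak. Of 18 tested members 0 were higher and 9 lower (0% and 50%, beside 11.1% and 5.87% of all peaks), with a median of −0.98. Without the doubtful pair 0 were higher and 10 lower, with a median of −1.29. *Eef2*, the translocation factor of the ribosome, lay at −1.20 ± 0.14 and *Rpl29* at −1.50 ± 0.26. Several of these genes have near-identical copies elsewhere in the genome and some are listed under a homologue's symbol, so their counts are uncertain. Of 36 oxidative phosphorylation genes 7 had a peak, and 1 of the 7, that of *Ndufa8*, was higher and 0 were lower (14.3% and 0%). Without the pair 1 was higher and 1 lower. Actin and cytoskeleton genes had a peak on 20 of 30 genes, with 3 higher and 6 lower of 25 members (12% and 24%), and 4 and 7 without the pair. Their median input was 131 normalised CPM and that of the ribosomal list 112. Of any members between 100 and 300 normalised CPM, 13.4% were lower. The lower actin and cytoskeleton members included a CDS peak of *Myh9*, the heavy chain of nonmuscle myosin, at −2.96 ± 0.49. The 3'UTR peak of *Tmsb4x*, the actin-sequestering thymosin, lay at −1.21 ± 0.13.

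Chromatin regulators and transcription factors lay nearer the average peak. Peaks were found on 39 of 48 listed chromatin regulators, and of 123 tested members 11 were higher and 2 lower, with a median of 0.09, and 13 and 3 without the doubtful pair. *Kmt2e*, a member of the MLL family, had 3 higher peaks, and *Kat6a*, a histone acetyltransferase, held 201, 148, 153 and 149 normalised CPM in IP and 73.2, 64.9, 60.3 and 49.8 in input at its stop codon, a log2 ratio of 1.40 ± 0.14. *Setd5* lay at 1.25 ± 0.15. *Kdm2a*, a histone demethylase, had 1 higher and 1 lower member. The share of higher calls in this list, 8.94%, was below the 11.1% of all peaks, and that of lower calls, 1.63%, was below the 5.87%.

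Of 52 members on KLF, immediate-early and growth-control factors, 7 were higher and 2 lower (13.5% and 3.85%, beside 11.1% and 5.87% of all peaks). Their median was 0.11, and 9 were higher and 5 lower without the pair. *Klf13* in the 3'UTR held 641, 433, 468 and 507 normalised CPM in IP and 185, 185, 160.3 and 167 in input, a log2 ratio of 1.56 ± 0.14, and *Klf2*, a factor that restrains myeloid activation, lay at 1.10 ± 0.14. *Id2*, an inhibitor of helix-loop-helix factors, fell by 0.98 (SE 0.13) in the 3'UTR. Genes that the table assigns to C2H2 zinc-finger families, a group chosen after seeing the data, had 58 higher and 11 lower of 374 members, a share of 15.5% higher, with a median of 0.36 at a median input of 21.9 normalised CPM, and 93 and 14 without the doubtful pair. Long noncoding RNAs had 45 higher and 34 lower of 391 (11.51% and 8.70%), a share of higher calls close to the 11.1% of all peaks, and 93 and 50 without the pair, and 340 of their 396 members also lay on another gene.

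Signalling genes had few calls. The 26 members of TLR and NF-kB signalling had 0 higher and 0 lower calls, beside 11.1% and 5.87% of all peaks, and a median of −0.23. Without the doubtful pair they had 1 higher and 3 lower calls, with a median of −0.48. Receptor tyrosine kinase and MAPK feedback genes had 2 higher and 0 lower of 19 (10.5% and 0%), with a median of 0.22. The higher ones were the start codon peak of *Dusp1*, a MAPK phosphatase, at 1.75 ± 0.32, whose stop codon peak lay at −0.04 ± 0.15, and a CDS peak of *Socs7* at 1.12 ± 0.27 and 0.99 without the doubtful pair. *Cbl*, a ubiquitin ligase for receptor kinases, fell by 0.93 ± 0.15 (SE) and *Socs6*, a suppressor of cytokine signalling, rose by 0.68 ± 0.14, both at the stop codon and both short of the fold threshold. Without the doubtful pair *Cbl* was called lower at −1.03, and the list had 1 higher and 1 lower call. *Spry1*, *Pou3f1* and *Cish*, which the study names, had 1, 3 and 2 peaks in the table, and none was a member, since their input rose after LPS. In the ADAP and integrin list 0 of 30 members were higher and 2 lower (0% and 6.67%), and 3 and 3 without the doubtful pair. The lower calls with all libraries were *Tln1*, the integrin activator talin, at −1.24 ± 0.12, and a peak that *Fyb1* shares with another gene, at −1.05 ± 0.16.

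**Figure D4:**
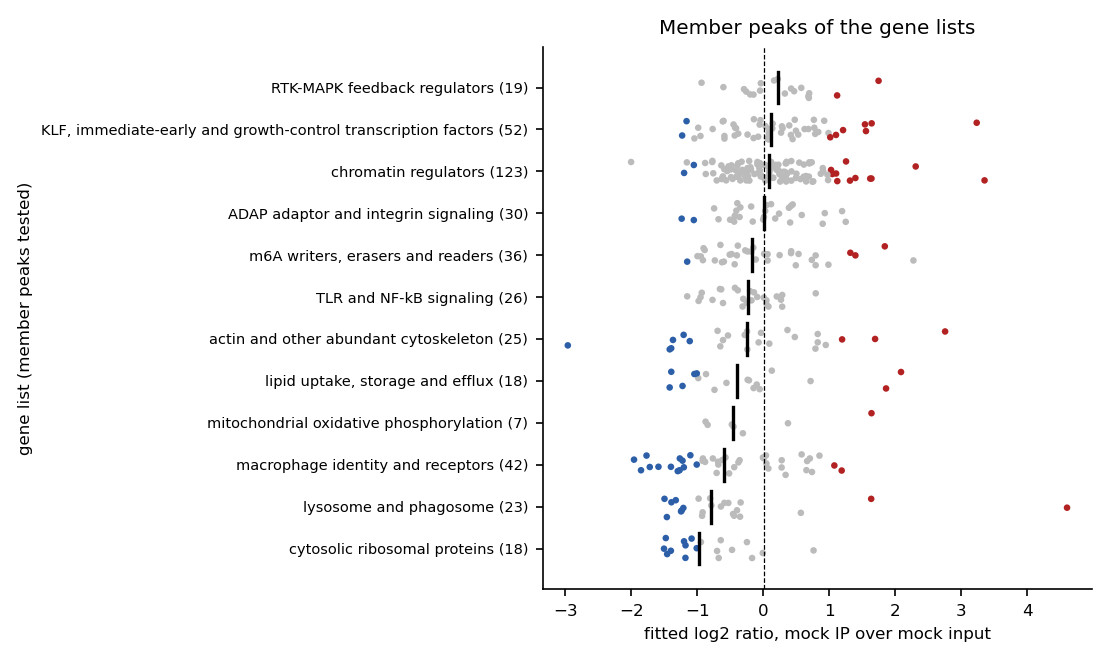
Fitted log2 ratio of mock IP over mock input (horizontal axis) for each tested member of the gene lists with at least 7 members (vertical axis, with the number of members), red for higher and blue for lower calls, a black bar for the list's median and a dashed line for the median of all members. The list medians run from −0.98 for ribosomal proteins to 0.22 for RTK-MAPK feedback regulators.

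Few markers of other cells had a peak, and their part in these results was not tested. *Cd22*, the only peak-bearing gene of 9 B cell markers in a longer list, had a CDS peak at 0.84 ± 0.15, and *Csf3r* lay at −1.17 ± 0.25. Among 10 fibroblast and mesothelial markers *Pdgfra* and *Lrrn4* had peaks, the latter with 1 higher member. Without the doubtful pair, 2 of 2 B cell members and 3 of 3 fibroblast and mesothelial members were called higher, and *Csf3r* stayed lower. In that fit 996 of all 6203 members tested were higher and 635 lower. In bulk RNA such as this, fewer cells of a type and less RNA per cell cannot be told apart.

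The same members measured in the LPS libraries, whose input but not IP levels the limit used, gave ratios that went with the mock ones. The measures are not independent, since a pair of mock IP libraries holds LPS transcripts. Both ratios also fell with the mock input level. From at most 10 to above 1000 normalised CPM the median went from 1.07 to −0.61 in mock and from 1.06 to −0.57 after LPS. The part of either in the likeness was not tested. Of 6189 members tested there, 849 were higher and 366 lower, beside 12.9% and 9.62% of all peaks tested after LPS. Of the 616 mock-higher members tested after LPS, 451 were called higher again and 612 had the same sign, and of the 410 mock-lower members, 204 were called lower again and 399 had the same sign. Over 6178 members the log2 ratios of mock and LPS had a Pearson r of 0.845, as a description across peaks. Without the doubtful pair r was 0.837 over 6166 members, and of the 969 then called higher and tested after LPS, 596 were called higher there and 955 had the same sign, while of the 635 called lower, 269 and 594 did. The LPS ratio was 2.31 for *Hexim1*, 2.27 for *Cln8*, 3.27 for *Saa3*, 1.73 and −0.59 for the stop and start codon peaks of *Jun*, and −1.77 for *Idh1*, whose mock ratio was −4.17.

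A test of the difference between states, added after seeing the data, found 41 members with a higher and 4 with a lower ratio after LPS (edgeR over all 16 libraries, adjusted p under 0.05), beside 2.14% of all peaks tested, and it includes the pair of mock IP libraries that hold LPS transcripts. Between genotypes, 0 members differed in their mock ratio at an adjusted p under 0.05 (edgeR), and 66 at an unadjusted p under 0.05, beside 0.987% of all peaks. DESeq2 also gave 0 after adjustment, and 33 unadjusted. The genotype tests also include the pair of mock IP libraries that hold LPS transcripts, with a library of the pair in each genotype. This adds to the spread within genotypes, so a count of 0 does not show that the ratios were equal.

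**Figure D5:**
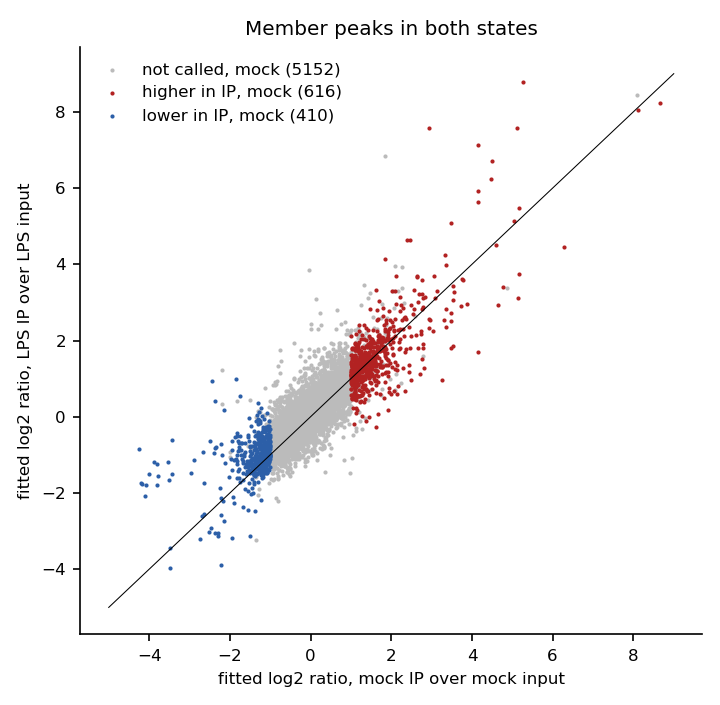
Fitted log2 ratio of IP over input in mock (horizontal axis) and LPS (vertical axis) libraries for the 6178 members tested in both, coloured by the mock call, with the line of equality. Of the mock-higher members, 612 of 616 lie above 0 on the LPS axis, and 399 of 410 mock-lower members lie below it.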

How the data were processed

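MeRIP-seq of PMs gave 16 libraries. The deposited table of the authors gives raw counts per library for merged peaks, their genes and regions. The submitters' processing notes name Bowtie2 2.2.8, MACS2 2.1.2, DiffBind 2.8 and GRCm39; whether the table counts positions from 0 or 1 is not given in the sources used here. Lines repeated for peaks with several genes were merged by peak name. Members and gene lists were chosen with earlier results of these data known. Counts were filtered (minimum count 10, minimum total 15), TMM-normalised and tested with edgeR 4.0.16, with genotype as a term, at adjusted p under 0.05 and log2 ratio beyond 1. The test was checked on simulated data. Region medians used log2 ratios with 0.5 CPM added, each IP library against both inputs of its genotype. Named genes were the first 12 higher and 8 lower peaks of 1 gene with 10 reads in each mock input and no overlap, the up to 4 most abundant members per list, and genes the study names. The extraction protocol splits RNA into IP and input, but replicate differences in IP and input correlated at only 0.02, −0.10, 0.08 and 0.09 (Adap-/- mock, WT mock, Adap-/- LPS, WT LPS; 7054 peaks). Columns of the authors' own comparisons were not used. Only reads on peaks are known, so total depth is unknown. Results for some genes are not reported here.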

Additional observations from a re-analysis of the deposited data

Results flagged for a closer look

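Among the 8 named lower peaks, the 3'UTR peak of *Pnpla7* had 1 IP library far from the other three: WT mock IP replicate 1, a library that holds LPS transcripts, lay at 49.2 normalised CPM, against 2.13, 3.78 and 8.91. Single libraries also stood apart at 5 further named peaks: *EEF1A1* and *Vim*, where WT mock IP replicate 1 was highest at 641 and 463 normalised CPM, *C1qb* and *Tmsb4x*, where WT mock input replicate 2 was highest at 3217 and 9701, and *Egr2*, where that library was lowest at 567. In all, 6 of 164 groups of 4 libraries examined held such a value, and chance alone would mark about 1 group in 20.

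The IP-to-input ratio differed between LPS and mock at 4 named peaks (edgeR over all 16 libraries, the interaction of treatment and library type). On the log2 scale the LPS ratio exceeded the mock ratio by 2.37 at *Idh1* (adjusted p = 0.0367), by 1.78 at *Cd300a* (adjusted p = 0.0482), by 2.31 at the 50-base stop codon peak of *Cd300lb* (adjusted p = 0.0367) and by 0.57 at the CDS peak of the reader *Ythdf3* (adjusted p = 0.0470). The test includes the pair of mock IP libraries that hold LPS transcripts.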

How the results depend on the processing

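Counts below are members higher and lower, in that order. In mock libraries, 633 and 410 became 952 and 243 with library totals in place of TMM, 1166 and 1267 at any fold change, and 996 and 635 without the pair of IP libraries that hold LPS transcripts, an alternative chosen after seeing the data. In LPS libraries, 849 and 366 became 2695 and 34 with library totals, where the median member moved from 0.14 to 0.90, 1675 and 1321 at any fold change, and 565 higher with at least 10 reads in every input. DESeq2 gave 667 and 448 in mock and 838 and 392 in LPS. Leaving out 1 library at a time gave 493 to 777 and 372 to 541 in mock, 720 to 896 and 318 to 455 in LPS, and 0 genotype differences after adjustment. The cause of these changes was not tested.

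With the replicate number as a block, the counts were 583 and 454 in mock and 826 and 375 in LPS, with 0 genotype differences; since replicate numbers did not pair the libraries, this is an alternative only. Crossing the WT numbers, chosen after seeing the data, gave 599 and 465.

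Requiring 10 reads in every mock input moved the start codon median to −0.24 and the 5'UTR median to −0.052, and members with 1 gene gave 0.67 for the 5'UTR. Leaving out 1 library at a time, the medians ranged from 0.02 to 0.08 (stop codon), −0.12 to −0.07 (CDS), −0.05 to 0.01 (3'UTR), −0.09 to −0.02 (start codon) and 0.51 to 0.58 (5'UTR), and the within-gene difference from 0.28 to 0.31.

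The 23 values that changed sign belonged to named peaks that were not called. With library totals, *Ythdf3* lay at 0.11, *Abcg1* at 0.13, *Irf5* at 0.055, *Nfkb1* at 0.0044, *Dusp1* at 0.20, *Nck1* at 0.079 and *Junb* at 0.16. With 10 reads in every input, *Dusp1* lay at 0.047 and *Junb* at 0.040. Leaving out 1 library at a time, the stop codon peak of *Dusp1* ranged from −0.14 to 0.070, *Junb* from −0.23 to 0.085 and *Lrrn4* from −0.15 to 0.81. With the same omissions, the *Fyb1* peak at chr15:6609828-6610128, near absent in Adap-/-, ranged from −0.43 to 0.33. That peak also lay at −0.043 with the replicate block, −0.055 with it crossed, −0.046 without the doubtful pair and −0.35 without a genotype term, and *Dusp1* at 0.15 without the pair. Faint peaks had few input reads, and intervals and tests cover these libraries only.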
